A study of Mus musculus with 14 samples.

Results

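The C/EBP and KLF adipogenic transcription factors were followed as 10 genes: Cebpa, Cebpb and Cebpg of the CCAAT/enhancer-binding protein family, and Klf2, Klf3, Klf4, Klf5, Klf6, Klf11 and Klf15 of the Krüppel-like family. Members were the probe sets whose platform symbol is 1 of these names, 26 of the 45037 probe sets that are not controls. Where a gene had several, the brightest on average over the 14 arrays stood for it and the others served as a check. All 10 genes were among the 12944 tested. The mice were 12-week-old males of the inbred strain C57BL/6, and total RNA was taken from their whole subcutaneous white fat. The exercised group (7 arrays) was taken after 11 days with a running wheel in the cage, and the sedentary group (7 arrays) after the same time without training. The comparison asked how the depot's transcripts changed with voluntary running. No label says that each array was a separate mouse, so the spread on which the p-values rest may be partly or wholly technical. In RNA of whole tissue, fewer cells of a type and less RNA per cell cannot be told apart.

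Fat cells form when a cascade of transcription factors commits a precursor and then holds the mature state. In cultured mouse preadipocytes C/EBPβ appears early and switches on C/EBPα and PPARγ, which then maintain each other and activate the genes of lipid storage and insulin response. Krüppel-like factors bind GC-rich and CACCC sequences and act on both sides of this cascade: KLF4, KLF5, KLF6 and KLF15 promote it, and KLF2 and KLF3 restrain it.

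Array medians lay between 531.3 and 603.3 signal units in exercised and between 553.3 and 617.4 in sedentary tissue. Signals are linear and relative to each array's own scale, and signals of different probe sets cannot be set against each other, so levels are compared only within a gene. The adipose label held: the 8 of 10 mature adipocyte markers that were tested summed to 351900 to 436400 units on exercised and 266600 to 414800 on sedentary arrays, and no marker was under 1313.4 on any array. Sedentary array 5 stood apart from the rest. It was the lowest of all 14 arrays for 24.9% and the highest for 23.1% of all genes tested, had the lowest adipocyte sum (266600) and had the highest macrophage sum (154400) and lymphocyte sum (87880).

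By limma, 0 of the 10 genes passed an adjusted p of 0.05, where 5.53% of all genes did (4.0% higher and 1.53% lower in exercised tissue). These were 518 higher and 198 lower genes, against 547 and 86 when arrays were centred on their medians. At an unadjusted p under 0.05 there were 5 of the 10 genes, against 21.8% of all genes. Klf15, Klf4, Cebpa and Cebpb lay on the higher side, and Klf6 on the lower. An exact two-sided permutation test of each gene alone over all 3432 assignments of arrays gave 4 of the 10 an unadjusted p under 0.05, with Cebpb left out (p = 0.0612), where 22.1% of all genes had one. In 7 genes the difference was positive and in 3 negative, where 45.0% of all genes were positive. The median difference over the 10 was 0.16 on the log2 scale, against -0.03 over all genes. Exercised and sedentary signals overlapped in each of the 10, while 2.68% of all genes had no overlap.

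**Figure D1:**
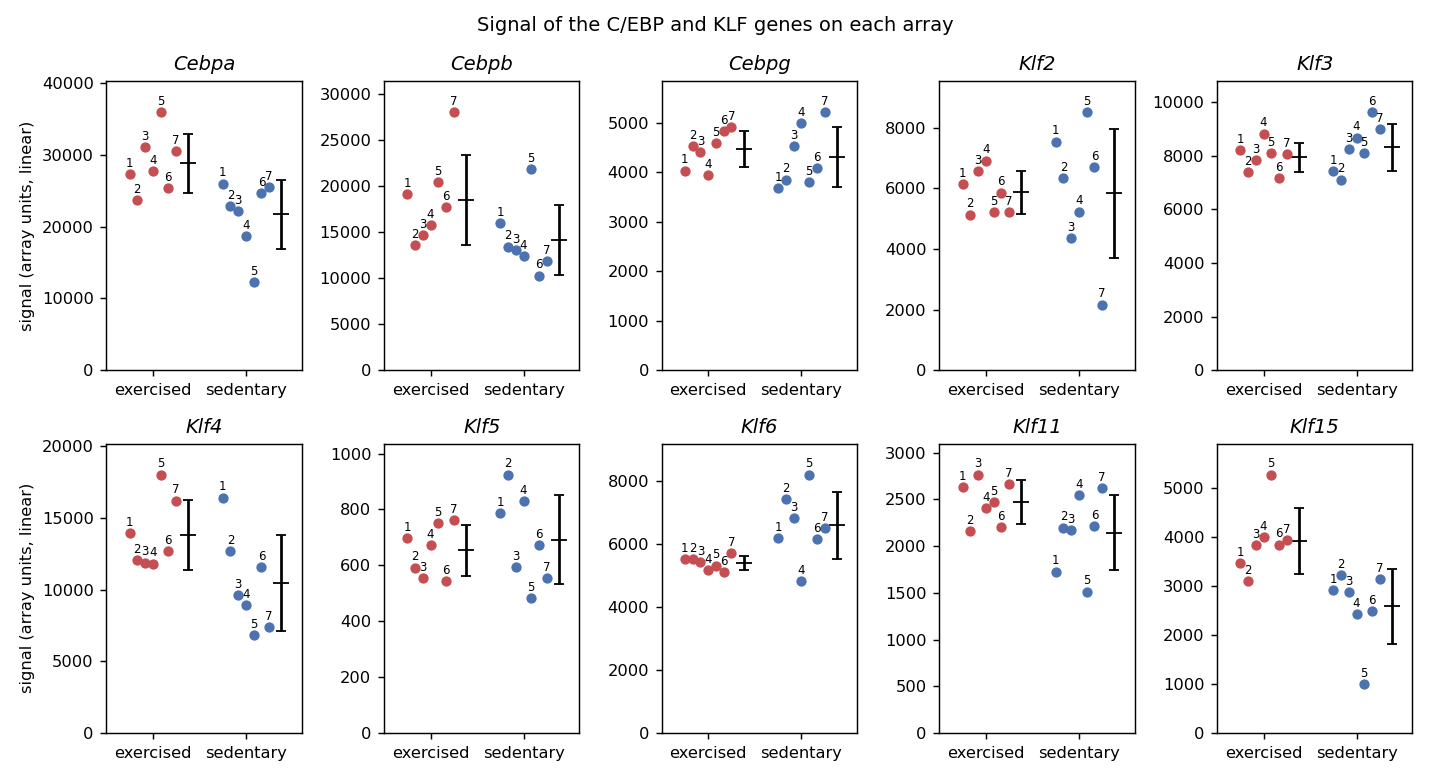
Signal of each of the 10 genes in array units on a linear axis from 0, with exercised arrays (red) left of sedentary arrays (blue), replicate numbers above the points, and mean ± SD (n = 7) as black bars. Klf15 on 6 of 7 exercised arrays lies above the highest sedentary array, and sedentary array 5 lies far below the others there.

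The promoters of the 5 genes with an unadjusted p under 0.05 are given to show what binding motifs the genes nearest to a change carry at their start sites. RefSeq windows on GRCm38.p6 were found for 9 of the 10 genes (not Klf5) and run from 250 bases before to 50 bases after the start site. Capitals mark the E-box CACGTG, the site of clock and MYC-type proteins, the CACCC box of Krüppel-like factors and the CCAAT box, each searched on both strands (GGGTG and ATTGG on the other strand). No 2 of these matches share a base. The windows are chr6:90462326-90462625 (plus strand) for Klf15, chr7:35119043-35119342 (plus) for Cebpa, chr13:5861239-5861538 (plus) for Klf6, chr4:55532426-55532725 (minus) for Klf4 and chr2:167688665-167688964 (plus) for Cebpb.
Klf15: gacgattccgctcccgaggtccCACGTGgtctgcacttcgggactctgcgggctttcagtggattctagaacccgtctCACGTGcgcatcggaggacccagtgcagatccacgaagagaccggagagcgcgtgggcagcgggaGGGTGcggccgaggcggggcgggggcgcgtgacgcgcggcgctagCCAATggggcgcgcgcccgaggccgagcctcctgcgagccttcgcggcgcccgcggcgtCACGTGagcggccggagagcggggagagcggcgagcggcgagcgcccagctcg
Cebpa: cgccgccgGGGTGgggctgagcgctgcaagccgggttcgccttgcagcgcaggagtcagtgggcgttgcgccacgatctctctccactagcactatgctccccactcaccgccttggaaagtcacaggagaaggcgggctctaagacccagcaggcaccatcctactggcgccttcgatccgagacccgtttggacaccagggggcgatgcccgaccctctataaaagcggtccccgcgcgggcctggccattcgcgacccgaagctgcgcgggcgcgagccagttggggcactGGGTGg
Klf6: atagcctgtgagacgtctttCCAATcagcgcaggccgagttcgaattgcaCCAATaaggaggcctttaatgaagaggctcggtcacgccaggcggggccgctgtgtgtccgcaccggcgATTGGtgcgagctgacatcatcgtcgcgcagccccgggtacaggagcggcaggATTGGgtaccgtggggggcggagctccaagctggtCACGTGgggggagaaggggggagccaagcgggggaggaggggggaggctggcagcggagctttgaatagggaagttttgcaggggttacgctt
Klf4: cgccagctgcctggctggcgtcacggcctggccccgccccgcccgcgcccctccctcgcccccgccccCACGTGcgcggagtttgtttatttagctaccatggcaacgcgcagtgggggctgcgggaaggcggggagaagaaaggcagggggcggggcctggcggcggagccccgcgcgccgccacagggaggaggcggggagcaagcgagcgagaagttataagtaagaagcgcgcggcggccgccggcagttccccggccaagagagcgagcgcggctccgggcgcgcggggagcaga
Cebpb: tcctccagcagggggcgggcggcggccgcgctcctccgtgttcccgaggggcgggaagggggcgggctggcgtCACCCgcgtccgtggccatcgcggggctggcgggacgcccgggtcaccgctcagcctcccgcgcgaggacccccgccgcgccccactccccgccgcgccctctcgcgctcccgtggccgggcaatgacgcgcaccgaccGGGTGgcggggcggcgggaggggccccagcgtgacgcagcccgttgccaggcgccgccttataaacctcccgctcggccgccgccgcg

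The Klf15 window held 3 copies of CACGTG, at 228, 172 and 3 bases before the start site. Of 32851 windows of this length in the table, 7.15% held the motif and 0.0883% held 3 or more. Klf4, Klf6 and Klf11 held 1 copy each, at 182, 43 and 214 bases before the start, and the windows of Cebpa, Cebpb, Cebpg, Klf2 and Klf3 held none. The CACCC box was in 5 of the 9 windows, against 57.5% of all windows, and the GC box GGGCGG, searched on both strands, in 8 of 9, against 35.7%. The CCAAT box was in 4 of 9 (Klf6 alone had 4 copies), against 37.4%, and the C/EBP-type sequence TTGCNNAA was in 0 of 9, against 10.8%. The 9 windows had a GC content of 63.0% to 80.7%, where the median of all windows was 52.7%, and the frequency of GC-rich letters depends on that content.

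Klf15, which in mouse adipocytes activates the insulin-responsive glucose transporter gene Slc2a4 and is induced by glucocorticoids, came closest to the threshold. Its signal had a lowest value of 3108, a median of 3853 and a highest value of 5280.4 in exercised tissue, against 996.3, 2886 and 3234 in sedentary tissue. All 7 exercised arrays were above the sedentary median and 6 were above the highest sedentary array, the exception being exercised array 2. The means were 3928 ± 673.6 in exercised and 2587 ± 764.1 in sedentary tissue (SD, n = 7 each). The log2 difference was 0.66 (SE 0.21, a 1.58-fold difference), with a 95% interval from 0.20 to 1.11 and an adjusted p of 0.0872 by limma. The unadjusted exact permutation p was 0.00175, and 8.61% of all genes had a smaller limma p. Sedentary array 5, at 996.3, lay far under the next sedentary value of 2429. Without it the difference was smaller, 0.45 (SE 0.11), but the spread was smaller too and the adjusted p was 0.0286 by limma.

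Muscle RNA was present on several arrays, and Klf15 is also made in skeletal muscle. The 18 muscle markers, all tested and all with positive differences, summed to 7879 to 798800 units on exercised and 6245 to 281300 on sedentary arrays, with single signals down to 16.5. Exercised arrays 1 and 4, which had muscle sums of 9603 and 7879, had Klf15 signals of 3478 and 3998, both above the highest sedentary signal of 3234. Exercised arrays 3 and 6, with the muscle sums of 752500 and 798800, had Klf15 signals of 3840.4 and 3853. Sedentary array 3, with a sum of 281300, had 2886. With the mean of the muscle markers as a covariate the difference of Klf15 was 0.63 (SE 0.26, limma adjusted p = 0.28). The part of muscle RNA in the result was not tested beyond these values.

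Cebpa, which with PPARγ keeps the mature adipocyte state and its response to insulin, was next among the genes on the higher side. Its signal ran from 23691 to 35965 with a median of 27716 in exercised tissue, and from 12305 to 25993 with a median of 22860 in sedentary tissue. All 7 exercised arrays lay above the sedentary median and 5 above every sedentary array. The difference was 0.43 (SE 0.15, 95% interval 0.11 to 0.75, limma adjusted p = 0.108, exact permutation p = 0.00641 unadjusted). Sedentary array 5 was again the lowest of the 14, at 12305, and without it the difference was 0.30 (SE 0.10, limma adjusted p = 0.0961). That array also had the lowest summed adipocyte signal. Of the 8 adipocyte markers tested, 7 had positive differences, the median of the 8 was 0.12, and 0 passed by limma. At an unadjusted limma p under 0.05, 4 were higher and 1 was lower, against 11.3% and 10.5% of all genes. The lower one was Lep (-1.41, SE 0.48, limma adjusted p = 0.105), which had the largest difference of the 8. Another probe set past the filter was measured for 3 of the 8, of which 1 was called higher by it and 0 by the first. With all probe sets averaged 1 of the 8 was called higher by limma. Without sedentary array 5, or with array weights, 1 was called lower. The part of these markers in the result was not tested.

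Cebpb, the early inducer, differed by 0.39 (SE 0.17, limma adjusted p = 0.202). Signals ran from 13584 to 28091 with a median of 17783 in exercised tissue, and from 10300.2 to 21887 with a median of 13060 in sedentary tissue. All 7 exercised arrays exceeded the sedentary median, but 1 of them, array 7, exceeded the highest sedentary array. Here sedentary array 5 was the highest of its group instead of the lowest, and without it the difference was 0.50 (SE 0.15, limma adjusted p = 0.0665). A second Cebpb probe set differed by 0.29 (SE 0.23, limma adjusted p = 0.593 among all probe sets). Cebpg, a partner that dimerises with the other C/EBPs and lacks an activation domain of its own, differed by 0.06 (SE 0.09, 95% interval -0.13 to 0.25), and its other probe sets by -0.01 and -0.21. Its signals were 3947 to 4906 in exercised and 3674 to 5214 in sedentary tissue, and the groups overlapped almost fully.

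Among the early Krüppel-like activators, Klf4, which in mouse preadipocytes activates Cebpb, had signals of 11817 to 18018 with a median of 12662 in exercised tissue, against 6813 to 16417 with a median of 9597 in sedentary tissue. Every exercised array was above the sedentary median, while sedentary array 1 was above 6 of the 7 exercised arrays. The difference was 0.44 (SE 0.18, 95% interval 0.07 to 0.81, limma adjusted p = 0.161). A second probe set of the gene gave 0.39 (SE 0.18). The value depended on single arrays: by limma the first probe set differed by 0.56 without sedentary array 1 (adjusted p = 0.0551), by 0.35 without sedentary array 5 (adjusted p = 0.251), by 0.24 without sedentary arrays 5 and 7 and by 0.25 with array weights (adjusted p = 0.318). Klf5, which C/EBPβ and C/EBPδ induce and which activates Pparg, had signals near the filter of 389.8 units, 543.6 to 761.5 in exercised and 482.9 to 924.3 in sedentary tissue. It differed by -0.06 (SE 0.14, 95% interval -0.36 to 0.24), and its second probe set past the filter on low signal differed by 0.25 (SE 0.16), so the direction of Klf5 depended on the probe set. Klf4 and Klf5 are also genes of epithelia, whose 6 tested markers summed to 2248 to 7109 units on exercised and 2721 to 9148 on sedentary arrays; their part in the result was not tested.

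Klf11, which in human adipocytes takes part in the brown-like gene programme, had signals of 2158 to 2764 with a median of 2472 in exercised tissue, and of 1514 to 2622 with a median of 2199 in sedentary tissue. It differed by 0.22 (SE 0.12, 95% interval -0.03 to 0.47, limma adjusted p = 0.281), with 6 of 7 exercised arrays above the sedentary median. Without sedentary array 5, the lowest of the 14, it differed by 0.14 (limma adjusted p = 0.443). Of the 11 brown and beige adipocyte markers 6 rose, where 4.0% of all genes did. Another probe set past the filter was measured for 5 of the 11, of which 2 were called by it and 2 by the first. Their summed signal was 56620 to 183000 units on exercised and 6024 to 56140 on sedentary arrays. The lowest exercised and highest sedentary sums nearly met, while the Klf11 signals of both groups overlapped widely.

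Klf6, which in mouse preadipocytes represses the inhibitor Dlk1, was the gene nearest to the threshold on the lower side. Its signal ran from 5119 to 5718 with a median of 5434 in exercised tissue, against 4834 to 8206 with a median of 6512 in sedentary tissue. All 7 exercised arrays were below the sedentary median, and 6 of the 7 sedentary arrays were above every exercised one. The difference was -0.27 (SE 0.09, 95% interval -0.47 to -0.07, limma adjusted p = 0.11, exact permutation p = 0.014 unadjusted). The exception was sedentary array 4, at 4834, and without it the difference was -0.34 (SE 0.07, limma adjusted p = 0.0208). All 4 other Klf6 probe sets were also negative, from -0.36 to -0.08, with limma adjusted p of 0.164 to 0.862 among all probe sets. Klf6 is also made in macrophages, whose 10 markers all had negative differences. By limma 1 of the 10 was lower, where 1.53% of all genes were. The 10 summed to 93380 to 122300 units on exercised and 100100 to 154400 on sedentary arrays. Sedentary array 5 had the highest macrophage sum and the highest Klf6 signal, while sedentary array 4 had the next highest sum, 144200, and the lowest Klf6 signal; their part in the result was not tested.

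Of the genes that restrain adipogenesis, Klf3, a repressor that acts through CtBP and lowers Cebpa, had signals of 7181 to 8832 in exercised and 7116 to 9634 in sedentary tissue. It differed by -0.06 (SE 0.08, 95% interval -0.22 to 0.10). All 6 other Klf3 probe sets, 5 of them past the filter, were negative too, from -0.34 to -0.12, and none passed among all probe sets. Klf2, which in mouse preadipocytes represses Pparg and is also a gene of endothelium and resting lymphocytes, differed by 0.11 (SE 0.23, 95% interval -0.39 to 0.60). Its signals were 5136 to 6914 in exercised and 2164 to 8521 in sedentary tissue, so that the exercised arrays lay inside the sedentary range. Sedentary array 7 had the lowest Klf2 signal, 2164, and without it the sign turned (-0.11, SE 0.14, limma adjusted p = 0.639). The 8 tested lymphocyte markers, all with negative differences, summed to 3310 to 45110 units on exercised and 3923 to 87880 on sedentary arrays. Sedentary array 7 held the 3923 and sedentary array 5, with the highest Klf2 signal, the 87880, while exercised array 5 had the sum of 3310 and a Klf2 signal of 5225; their part in the result was not tested. The 10 endothelial markers summed to 34520 to 39440 units on exercised and 27850 to 51040 on sedentary arrays. The 7 smooth muscle and pericyte markers summed to 40610 to 53400 units on exercised and 34400 to 72290 on sedentary arrays, and the 9 progenitor and fibroblast markers to 191600 to 287000 on exercised and 184100 to 261500 on sedentary arrays.

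**Figure D2:**
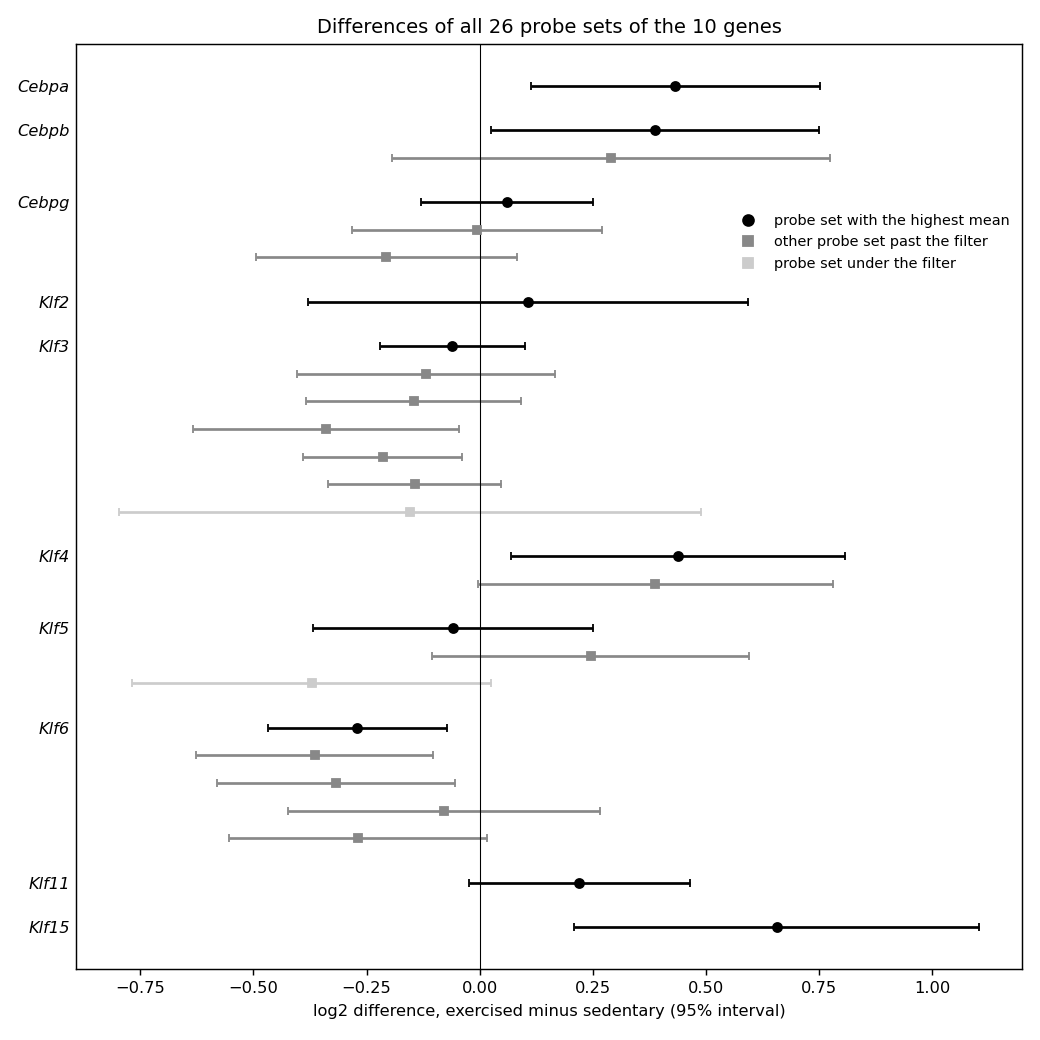
Log2 difference, exercised minus sedentary, with its 95% interval for all 26 probe sets of the 10 genes, from the fit of all probe sets. The 5 probe sets of Klf6 and the 7 of Klf3 all lie below 0, those of Cebpb and Klf4 above 0, and those of Cebpg and Klf5 on both sides.

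Over all 10 genes, 16 other probe sets were measured and 13 had the sign of the one that represented the gene. Of the 14 that passed the filter, 11 did. The exceptions past the filter were both other probe sets of Cebpg and 1 of Klf5. In the fit of 45037 probe sets, 0 of the 26 passed the adjusted threshold by limma, where 1.78% of all probe sets did. An unadjusted p under 0.05 was found for 9 of the 26, against 15.0% of all probe sets. These 9 were 3 of Klf6, 2 of Klf3 and 1 each of Cebpa, Cebpb, Klf4 and Klf15.

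**Figure D3:**
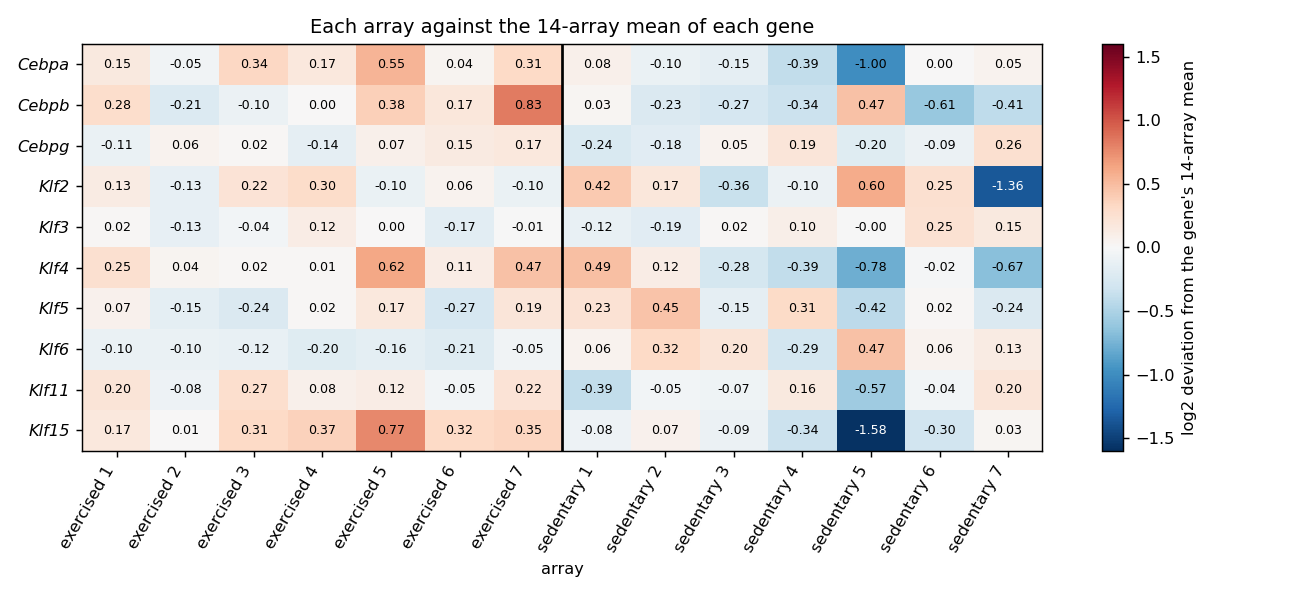
Log2 deviation of each array from the gene's own mean over 14 arrays, exercised arrays left of the line and sedentary arrays right of it. Sedentary array 5 is lowest for Cebpa, Klf4, Klf5, Klf11 and Klf15 and highest for Klf2 and Klf6, and sedentary array 7 is lowest for Klf2.

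The arrays that stood out did so in opposite directions in different genes. Sedentary array 5 was the lowest of the 14 for 5 genes (Cebpa, Klf4, Klf5, Klf11 and Klf15), against 24.9% of all genes. It was the highest for 2 (Klf2 and Klf6), against 23.1% of all genes. Its log2 deviations from the 14-array mean ran down to -1.58 for Klf15. Exercised array 5 was the highest for Cebpa, Klf4 and Klf15, and for 10.9% of all genes. No exercised array was the lowest of the 14 for any of the 10 genes. Over all genes, each exercised array was the lowest for between 3.25% (array 2) and 14% (array 5). On the log2 scale the SD was smaller among exercised than among sedentary arrays in all 10 genes, against 64.6% of all genes, with Cebpb nearly equal (0.351 and 0.352). It was 0.057 and 0.239 for Klf6 and 0.171 and 0.657 for Klf2. Without sedentary array 5 it was smaller among exercised arrays in 7 of the 10, against 51.9% of all genes.

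**Figure D4:**
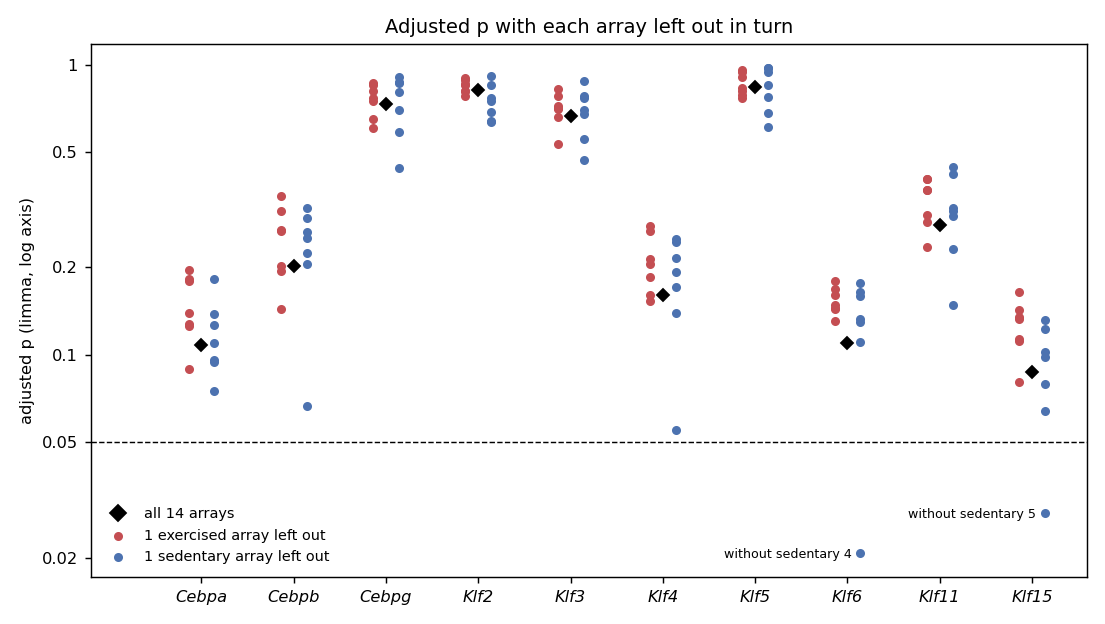
Adjusted p of each gene by limma on a log axis with all 14 arrays (black) and with each exercised (red) or sedentary (blue) array left out; the dashed line is 0.05. Klf15 passes without sedentary array 5 (0.0286) and Klf6 without sedentary array 4 (0.0208), and no other point lies under the line.

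The rest of both families gave 0 calls by limma, of 2 other C/EBP genes and 12 other KLF and Sp genes tested. At an unadjusted limma p under 0.05 there were 0 and 2, against 21.8% of all genes. Cebpd, the partner of Cebpb in early adipogenesis, differed by -0.20 (SE 0.16), and Ddit3, a C/EBP relative that blocks its partners from DNA, by -0.17 (SE 0.15). Without sedentary array 5 Cebpd differed by -0.06, and by another probe set it differed by 0.25 (SE 0.16). Ddit3 differed by -0.31 without exercised array 5 (limma adjusted p = 0.0672) and by -0.11 without exercised array 6. Klf9, which glucocorticoids induce, had the smallest p among the other Krüppel-like genes, 20890 ± 3233 units in exercised and 15170 ± 5103 in sedentary tissue (SD, n = 7 each). It differed by 0.51 (SE 0.17, limma adjusted p = 0.104), and by 0.64 without sedentary array 7, where its adjusted p was 0.0139 by limma. Sp4 differed by -0.60 (SE 0.28, limma adjusted p = 0.223), and by -0.37 without exercised array 5.

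Of 12 other regulators that promote adipogenesis 0 passed by limma, and the list had a median difference of 0.14. At an unadjusted limma p under 0.05 there was 1, against 21.8% of all genes. That gene was Stat5a, which carries growth hormone and prolactin signals (0.36, SE 0.10, limma adjusted p = 0.0541), which passed without exercised array 2 (adjusted p = 0.0282). Zfp467 had the next smallest p (0.34, SE 0.22), and differed by 0.17 without sedentary array 5. Of 11 regulators that restrain adipogenesis 1 fell by limma, where 1.53% of all genes did, and the list had a median of -0.05. It was Foxo1, a factor that insulin holds out of the nucleus (-0.23, SE 0.06, limma adjusted p = 0.047). Foxo1 passed in 8 of 28 alternative settings, and in 2 of the 14 that left out 1 array.

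Genes downstream of these factors were read from lists of reported targets. The lists were chosen with earlier results of these data known, so their counts beside those of all genes are description only. Of 10 tested genes that have been reported as Klf15 targets in mouse fat, muscle, heart or liver, 7 rose by limma, where 4.0% of all genes did, and the median difference was 0.70. They were led by Slc25a20, the mitochondrial carnitine carrier (16920 ± 3723 in exercised and 7059 ± 1595 in sedentary tissue, SD, n = 7 each), which rose by 1.26 (SE 0.16, limma adjusted p = 0.00143). Slc27a1, a fatty acid transporter, rose by 0.98 (SE 0.16), Hadha, a subunit of the mitochondrial β-oxidation complex, by 0.98 (SE 0.16), and Bcat2, the first enzyme of branched-chain amino acid breakdown, by 0.87 (SE 0.20). Several of the 10 are genes of fatty acid oxidation. The count was 4 without exercised array 1, 3 or 5, 3 without exercised array 7, 3 with the muscle markers as a covariate and 3 with the replicate number as a block. Of the 4 targets that have another probe set past the filter, all called by their first, 2 were called by the other.

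Of 14 tested adipocyte genes that C/EBPα or PPARγ bind, 2 rose by limma, against a background of 4.0%, and the median difference was 0.21. All 8 tested adipocyte markers are among these 14, so the lists are not separate observations. In the 14, 13 differences were positive and 1 negative, that of Lep (-1.41, SE 0.48). Slc2a4 rose by 0.77 (SE 0.21, limma adjusted p = 0.0467), with 14070 ± 2415 units in exercised and 8572 ± 2516 in sedentary tissue (SD, n = 7 each). Pck1, which supplies glycerol phosphate for fat storage, rose by 0.62 (SE 0.17, limma adjusted p = 0.0449). Both genes are also among the 7 called in the list of Klf15 targets, so these calls are shared by the lists. Both calls were near the threshold: with 1 array left out, the list had between 0 and 3 higher calls, and fewer than 2 without any 1 of exercised arrays 1, 3, 4, 5, 6 and 7 or sedentary arrays 1, 2, 3, 4, 6 and 7. It had 0 with quantile normalisation, without the filter, without a variance trend, with the muscle covariate and with the replicate block. Another probe set past the filter was measured for 8 of the 14, of which 2 were called higher by the first and 1 by the other. The 1 was an adipocyte marker, so neither Slc2a4 nor Pck1 was called by its other probe set. Of 5 genes reported as Klf2 or Klf4 targets 0 passed by limma. At an unadjusted limma p under 0.05 there were 2, against 21.8% of all genes. These were Thbd, the endothelial thrombomodulin gene (-0.62, SE 0.20, limma adjusted p = 0.078), and Nos3, the endothelial nitric oxide synthase gene (0.45, SE 0.15, limma adjusted p = 0.0883). Their signs were opposite. KLF2 activates both genes in cultured endothelium, and its part in these differences was not tested. Thbd passed without sedentary array 5 (limma adjusted p = 0.0225).

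Signals upstream of these factors were sampled with genes that respond to the same stimuli. Of 12 glucocorticoid-induced genes 2 rose by limma, where 4.0% of all genes did. These were the clock gene Per1 (0.57, SE 0.11, limma adjusted p = 0.00736) and the kinase gene Sgk1 (0.48, SE 0.12, limma adjusted p = 0.0352). In the list 5 differences were positive and 7 negative, with a median of -0.02. Zbtb16 had the largest difference, a negative one (-1.19, SE 0.39, limma adjusted p = 0.0873), and Fkbp5 differed by -0.41 (SE 0.24). Klf9 and Cebpd, given above, are also on this list. The count of higher calls in the list was between 1 and 3 with 1 array left out, and 1 without any 1 of exercised arrays 1, 3, 4, 6 and 7 or sedentary arrays 1, 4 and 6. It was 0 with the replicate number as a block and 1 with the muscle covariate. Klf2, Klf4, Klf6 and Cebpb also belong to the immediate early genes in stimulated cells. Of 14 other genes of this class 1 fell by limma, where 1.53% of all genes did, and the median was -0.02. It was Btg2, an inhibitor of proliferation (-0.44, SE 0.12, limma adjusted p = 0.0399). At an unadjusted limma p under 0.05, 1 was lower and 2 were higher, against 10.5% and 11.3% of all genes. The higher ones were Fos (1.04, SE 0.35, limma adjusted p = 0.103) and Nr4a1 (0.42, SE 0.18, limma adjusted p = 0.177). Btg2 passed in 13 of 28 alternative settings, and not without any 1 of exercised arrays 3, 5, 6 and 7 or sedentary arrays 2, 3, 4, 5 and 7.

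**Figure D5:**
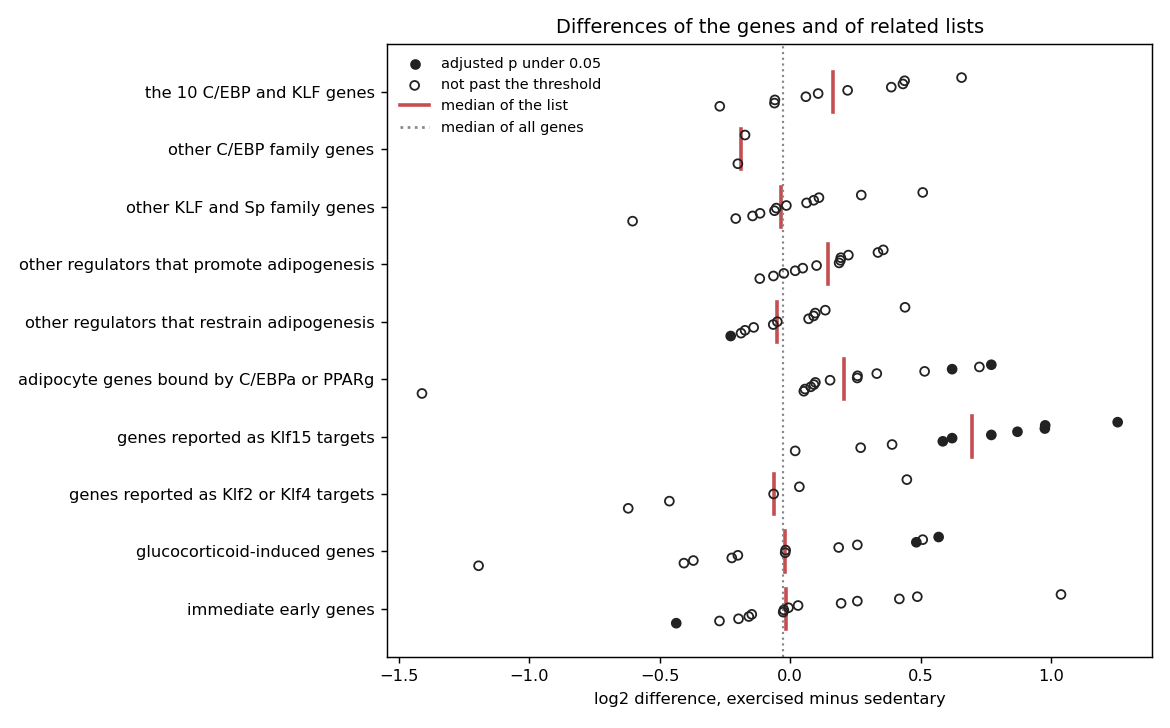
Log2 difference, exercised minus sedentary, of each tested gene of the 10 and of related lists, filled where the adjusted p is under 0.05, with list medians (red) and the median of all genes (dotted, -0.03). The reported Klf15 targets have 7 of 10 filled points and a median of 0.70, and the 10 C/EBP and KLF genes have none filled and a median of 0.16.

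Klf15 had the smallest p of the 10, so the genes with the most similar array-to-array pattern were sought for it, over 14 arrays after each gene's group means were taken off. The 3 highest were Klb, which encodes the co-receptor β-klotho for endocrine fibroblast growth factors (Pearson r = 0.971, Spearman rho = 0.864), Zfyve21 (0.966 and 0.859) and Gstz1, an enzyme of tyrosine breakdown (0.966 and 0.886). Without sedentary array 5 and exercised array 5, which lay farthest from the middle in Klf15, the Pearson values were 0.855, 0.875 and 0.834. The genes were chosen for these values, the arrays share tissue composition and scale, and no test was made. None of the 3 passed between exercised and sedentary tissue by limma (differences of 0.12, -0.02 and 0.19, adjusted p = 0.764, 0.972 and 0.674).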

How the data were processed

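Per the labels' protocols, total RNA of 14 tissue samples was turned into biotin-labelled cRNA and read on Affymetrix arrays. The authors deposited linear intensity values from MAS5, per the submitters' processing notes, without a version or settings in the labels. The mean of these values without 2% at each end was 1500 on every array, which removes differences in total RNA. Samples were grouped by their titles. Values were taken as log2(signal + 46.8), the pseudocount being the 10th percentile of all values, which understates changes of weak genes. Probe sets with a mean under 389.8, the 40th percentile, were left out, and each gene kept its probe set that was brightest on average. Symbols came from the platform annotation, updated through Entrez identifiers (34741 of 34945). Probe sets with several symbols (932) or none (9160) entered no gene test. Two-sided tests between the groups came from limma 3.58.1 under R 4.3.3, by lmFit and trended eBayes, and Benjamini-Hochberg adjustment ran over 12944 genes with a threshold of 0.05; the code was tested on simulated data. Other probe sets were taken from a fit of all 45037. Named genes were the 10, up to 4 called genes with the largest difference in each related list (or the 2 with the smallest p), and the 3 genes most similar to the gene with the smallest p. Fos, Nr4a1, Lep, Zbtb16 and Fkbp5 were named besides for their direction, without refits. The genes, lists and alternatives were chosen with earlier results of these data known. Alternatives concerned scaling, pseudocount, filter, probe set choice, variance trend, array weights, a muscle covariate, the replicate block and leaving out arrays. The number of arrays limits the precision.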

Additional observations from a re-analysis of the deposited data

Results flagged for a closer look

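Of 56 groups of 7 arrays examined, in the 10 genes and 18 other named genes, 4 held an array whose gap to its nearest neighbour, as a share of the group's range on the log2 scale, was over Dixon's critical value; chance flags about 1 in 20. Klf15 on sedentary array 5 was low (996.3, next value 2429, a ratio of 0.754). Slc2a4 on the same array was low (3494, next value 7056, a ratio of 0.641), and Cebpd on it was high (10400.1, next value 5824, a ratio of 0.72). Ddit3 on exercised array 5 was high (3369, next value 1963, a ratio of 0.618).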

How the results depend on the processing

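Each gene was refitted under 28 alternatives (27 for genes with 1 probe set or when the filter removed it), and the count of the 10 genes that passed was 0 in the fit of all arrays. On the higher side it was 1 with array weights (Klf15, 0.45, adjusted p = 0.0445) and 1 without sedentary replicates 5 and 7, and from 0 to 1 with each array left out in turn. On the lower side it was from 0 to 1 with each array left out, and 0 otherwise. Klf15 passed in 3 of 27 alternatives (adjusted p 0.0282 to 0.28) and Klf6 in 1 of 28 (0.0208 to 0.273), and the other 8 genes in none. Signs turned only for genes whose differences with all arrays lay between -0.20 (Cebpd) and 0.11 (Klf2). The turned values were 0.0022 for Klf3 and 0.0328 for Klf5 with the muscle covariate. With all probe sets averaged they were -0.0511 for Cebpg, 0.0932 for Klf5 and 0.0248 for Cebpd. With another probe set they were -0.2063 for Cebpg, 0.2454 for Klf5 and 0.2504 for Cebpd. With each array left out in turn, Klf5 ran from -0.1341 to 0.0117 (turned without sedentary replicate 2) and Klf2 from -0.1104 (turned without sedentary replicate 7) to 0.2153, and it was -0.0237 for Klf2 without sedentary replicates 5 and 7. The cause was not tested. Over all genes 518 were higher and 198 lower (72.3% of calls higher), against 547 and 86 (86.4%) with centring on array medians, 628 and 398 with array weights, 183 and 39 with the muscle covariate, and 309 to 591 and 79 to 262 with each array left out. No label says whether the replicate numbers pair the arrays. Of the same-numbered pairs, 3 of 7 had deviations correlated above 0.1, and 3 of 7 exercised arrays correlated best with their own number. These values cannot decide whether the arrays are paired. With the replicate block 136 genes were higher and 25 lower, 0 of the 10 genes passed on either side, and Klf15 differed by 0.66 (SE 0.25, adjusted p = 0.205). Of 1008 recounts of the related lists 141 moved by over 1.5 times, and of 496 refits of the other named genes 85 lost a call and 9 gained one. The result for Klf5, with a mean of 672.7 units against a filter of 389.8, is limited by probe sets that differed in direction.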
